A study of Mus musculus with 36 samples.

Results

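Elastic fibres give tissues recoil, and the genes described here code for elastin, for the fibrillins that form the microfibril scaffold, for the fibulins that link elastin to that scaffold, and for microfibril-associated proteins. The 10 genes, Eln, Fbn1, Fbn2, Fbln1, Fbln2, Fbln5, Efemp1, Efemp2, Mfap4 and Mfap5, were taken as a list. It was chosen with earlier results of these data known, so its counts beside the shares of all genes are descriptions. Each gene was read from its brightest probe set, by the mean of the 36 arrays. A probe set was listed for 8 of the 10; Fbn1 and Efemp2 were not analysed here. Of the 17097 genes with a probe set, 12823 passed a filter on the mean level (at least 5.19 log2 intensity), and 7 of the 8 elastic fibre genes were among them. The exception was Fbln2, with a mean of 3.82 log2.

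Gene expression was measured on 36 mouse Affymetrix arrays in stromal cells labelled neural fraction. The cells came from human oral carcinomas grown in the mouth of NSG mice, a strain that lacks mature T, B and natural killer cells. The tumour cells were VDH15 or SCC25, both labelled oral carcinoma cell lines and SCC25 a widely used human one, and the hosts ate a diet rich in palmitic acid, a diet rich in oleic acid or a control diet. Tumour cells carried an shRNA that silences CD36, a receptor and transporter of fatty acids, or the non-targeting PLKO shRNA.

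The first experiment with VDH15 compared the palmitate, oleate and control diets in non-targeting tumours, with 4 arrays in each of its 3 groups. Another with SCC25 and a second with VDH15 compared shCD36 tumours on palmitate and control diets and non-targeting tumours on the same diets, with 3 arrays a group. Every group is labelled as 1 biological replicate, and its arrays are labelled technical replicates; whether they share an RNA sample, a tumour or a mouse is not stated. Palmitate against control in non-targeting tumours therefore had n = 3 experiments, each comparison with shCD36 had n = 2, and oleate had n = 1. Because the shRNA was in human cells, mouse Cd36 does not check the labels. With diet and shRNA in the model, the deposited log2 values carry no difference between hybridisation batches, which coincide with the experiments, so levels are set side by side only within an experiment.

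Whole-array medians lay between 5.98 and 6.04 log2. On the first principal component 3 arrays stood apart, with scores of 42.6 to 53.2: palmitate arrays 1 and 2 of the first VDH15 experiment and non-targeting palmitate array 1 of the second. The other non-targeting palmitate arrays scored 13.8 to 23.2, and the remaining arrays lay between -26.9 and -1.01. Of the Schwann cell and glia markers read here, Sox10 (6.85 log2), Erbb3 (8.97), Ngfr (7.78) and Mbp (6.66) passed the filter, and S100b (4.87), Gfap (4.45) and Foxd3 (4.38) did not. All 9 keratinocyte markers passed, with a median level of 11.3 log2, and so did 8 of 10 fibroblast markers, with a median of 10.5 log2. The neural label thus had only part of its glial markers above the filter, and the cells are called here by their label.

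Elastin is secreted as a soluble precursor and is deposited onto microfibrils, where lysyl oxidases cross-link it into an insoluble polymer. Fibulin-5 brings elastin and the cross-linking enzymes together, and microfibrils also hold latent TGF-beta through the latent TGF-beta binding proteins. In adult connective tissue most of these genes are transcribed by fibroblasts and smooth muscle cells.

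RefSeq promoter entries were matched for 6 of the 10 genes. The 250 bases before the start of Fbln1 and of Fbln5 are shown because these are the genes of the list that rose on the palmitate diet and have an entry. Coordinates are from GRCm38.p6, at chr15:85205699-85205948 on the plus strand for Fbln1 and chr12:101819120-101819369 on the minus strand for Fbln5. Capitals mark a match to the SMAD box CAGACA in Fbln1 and to the GC box GGGCGG in Fbln5, both read here on the opposite strand.
Fbln1: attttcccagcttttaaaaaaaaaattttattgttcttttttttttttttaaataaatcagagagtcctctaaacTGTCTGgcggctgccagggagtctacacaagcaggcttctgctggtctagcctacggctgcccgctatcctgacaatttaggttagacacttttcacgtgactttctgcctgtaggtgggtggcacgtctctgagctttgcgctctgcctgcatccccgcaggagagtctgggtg
Fbln5: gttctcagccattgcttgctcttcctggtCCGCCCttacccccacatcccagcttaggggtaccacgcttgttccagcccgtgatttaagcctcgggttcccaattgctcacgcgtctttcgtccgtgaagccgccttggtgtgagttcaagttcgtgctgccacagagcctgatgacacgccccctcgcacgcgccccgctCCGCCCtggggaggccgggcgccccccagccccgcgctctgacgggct
The Fbln1 window held 46.4% GC and 1 CAGACA match, 175 bases before the start, and the Fbln5 window held 65.2% GC and 2 GGGCGG matches, 221 and 48 bases before the start. Over 32851 windows of the same length the median GC content was 52.4%. On both strands CAGACA occurred in 17.1% of windows and GGGCGG in 32.7%. The TATA box TATAAA (12.4% of windows), the AP-1 motif TGANTCA (6.75%) and the CArG box (1.47%) were not in either window. These matches describe the letters only.

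The first comparison asked what the palmitate-rich diet changed in the stroma of non-targeting tumours. Eln, Fbln1, Fbln5, Mfap4 and Mfap5 rose, so 5 of the 7 genes above the filter passed the test, and the fold increase ran between 1.23 for Fbln1 and 3.56 for Mfap5. Fbn2 and Efemp1 did not pass. Of all 12823 genes, 3.65% were called higher, 3.27% lower and 6.92% in either direction (limma on group averages with experiment as a block, adjusted p under 0.05). The median difference was 0.97 log2 over the 7 genes and -0.03 log2 over all genes. With only the palmitate and control groups of non-targeting tumours fitted, the differences were the same but all 5 calls ended, at adjusted p between 0.0681 for Mfap4 and 0.131 for Fbln1, and 34 of the 12823 genes were called.

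**Figure D1:**
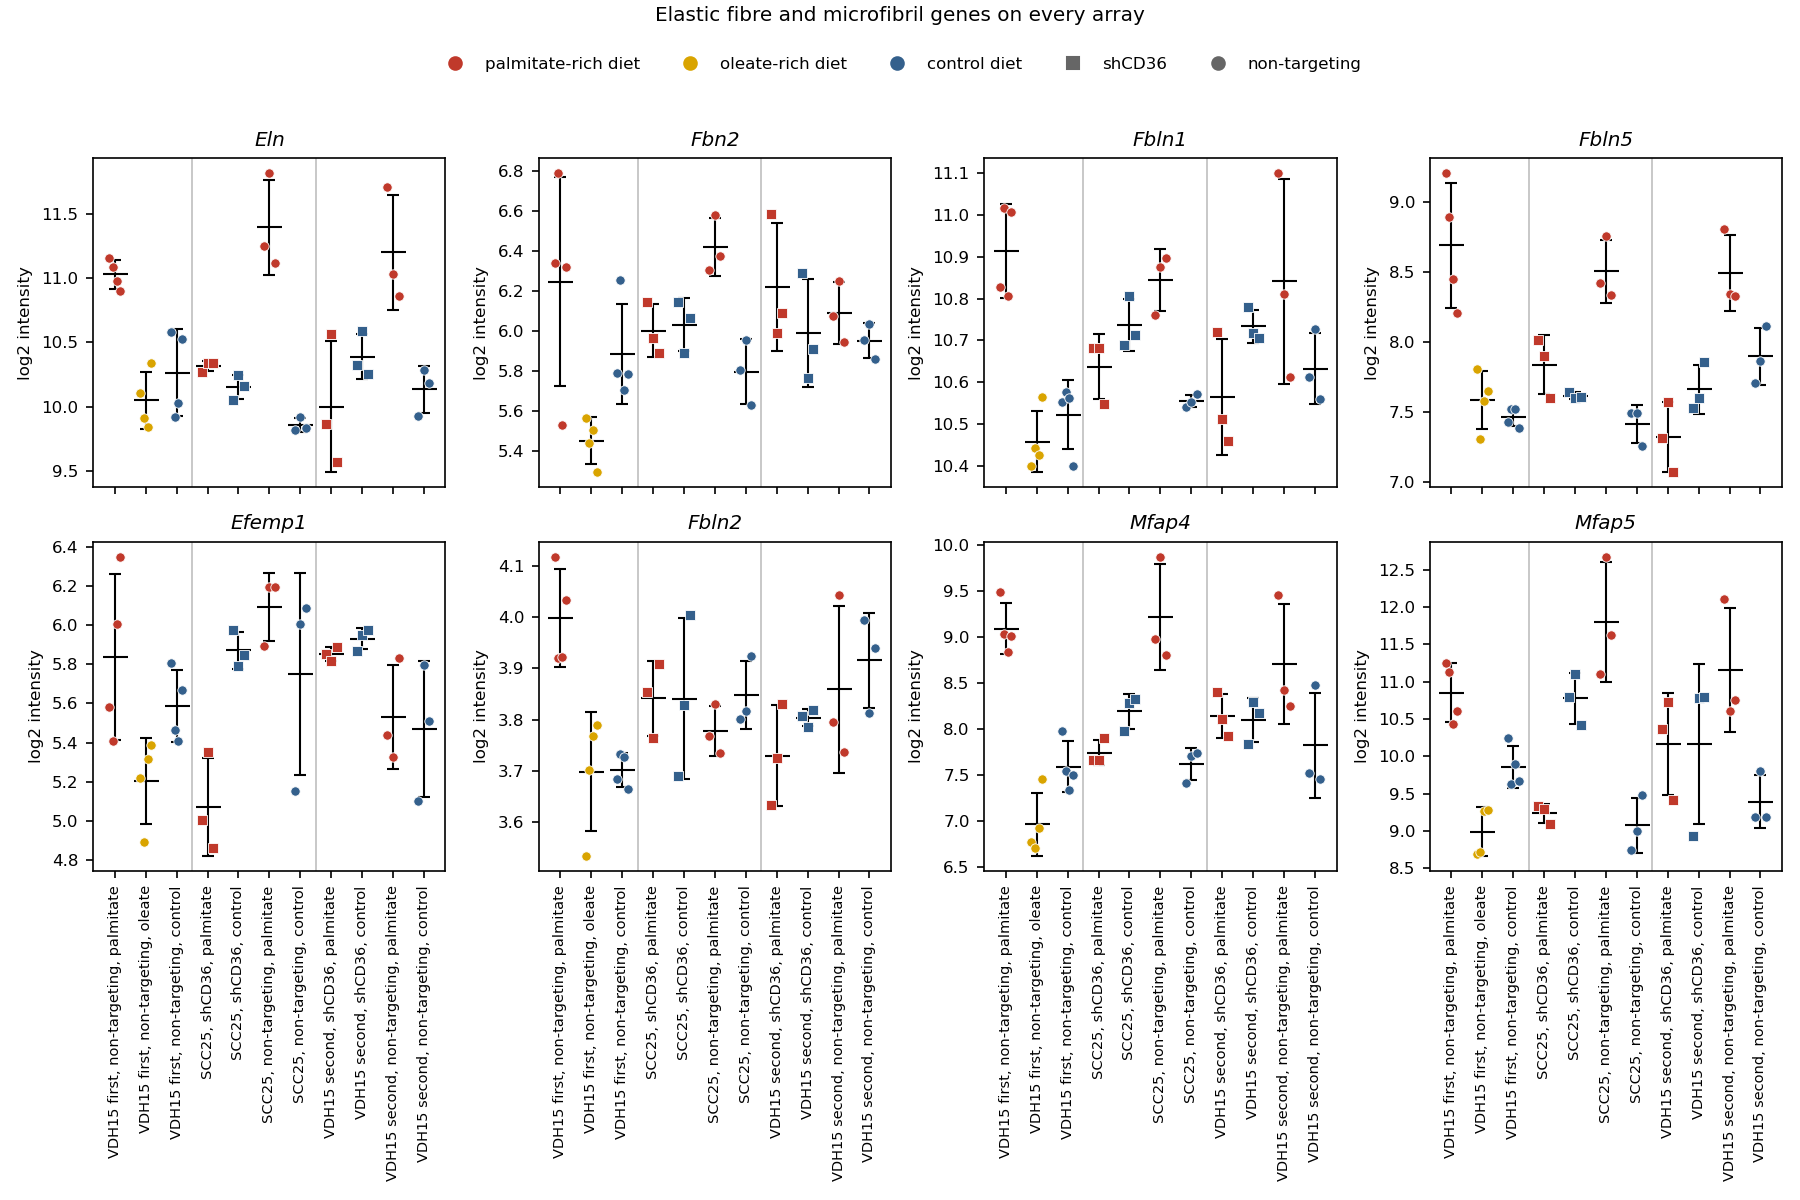
Log2 intensity of the 8 elastic fibre and microfibril genes on each of the 36 arrays, by group; points are arrays, bars are the mean and SD over the 3 or 4 arrays of a group, and vertical lines part the experiments. Palmitate arrays of non-targeting tumours sit above the control arrays for Eln, Fbln5 and Mfap5 in each experiment, while Fbln2 stays between 3.54 and 4.12 log2.

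Eln, which encodes the elastin precursor (1420855_PM_at, gene ID 13717, chr5:134702595-134747368), read 11.15, 11.08, 10.98 and 10.90 log2 on the palmitate arrays of the first VDH15 experiment, against 10.58, 9.92, 10.03 and 10.53 on control. With SCC25 tumours it read 11.25, 11.82 and 11.12 on palmitate, against 9.82, 9.92 and 9.83 on control. The second VDH15 experiment gave 11.71, 11.03 and 10.86 on palmitate, against 9.93, 10.28 and 10.19 on control. Every palmitate array lay above every control array of its experiment, and the smallest gap was in the first VDH15 experiment. The rise was 1.12 ± 0.16 log2, or 2.18-fold (SE, n = 3, adjusted p = 0.0206).

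Fbn2 codes for fibrillin-2, a microfibril scaffold protein used mainly in developing tissue (1422831_PM_at, on chromosome 18). It averaged 6.24 ± 0.52 log2 on palmitate and 5.88 ± 0.25 on control in the first VDH15 experiment (SD, n = 4 arrays). The averages were 6.42 ± 0.14 on palmitate and 5.80 ± 0.16 on control with SCC25 tumours, and 6.09 ± 0.15 on palmitate and 5.95 ± 0.09 on control in the second VDH15 experiment (SD, n = 3 arrays). Palmitate was above control in all 3 experiments, but the arrays were apart without overlap only with SCC25 tumours. The difference of 0.37 ± 0.11 log2 did not pass (SE, n = 3, adjusted p = 0.0887).

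Fbln1 encodes fibulin-1, which binds elastin and basement membrane proteins (1451119_PM_a_at, gene ID 14114, chr15:85205949-85286294). Its palmitate arrays read 10.83, 11.02, 10.81 and 11.01 log2 in the first VDH15 experiment, against 10.55, 10.58, 10.56 and 10.40 on control. The SCC25 values were 10.76, 10.88 and 10.90 on palmitate and 10.54, 10.55 and 10.57 on control. In the last experiment, with VDH15 again, they were 11.10, 10.81 and 10.61 on palmitate and 10.61, 10.73 and 10.56 on control. The groups were apart in the first 2 experiments and overlapped in the last, where array 1 was the highest. The rise was small, 0.30 ± 0.07 log2 or 1.23-fold, and passed narrowly (SE, n = 3, adjusted p = 0.0485). It did not pass after quantile normalization (0.23 log2, adjusted p = 0.0927) or without the 3 arrays that stood apart (0.25 log2, adjusted p = 0.0947).

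Fbln5 encodes fibulin-5, which tethers elastin to microfibrils and to integrins (1416164_PM_at, gene ID 23876, chr12:101746565-101819119). On palmitate it read 9.20, 8.89, 8.45 and 8.20 log2 in the first VDH15 experiment, against 7.43, 7.52, 7.51 and 7.38 on control. SCC25 tumours gave 8.42, 8.75 and 8.33 on palmitate, against 7.49, 7.49 and 7.25 on control. VDH15 tumours of the second experiment gave 8.80, 8.34 and 8.32 on palmitate, against 7.71, 7.86 and 8.11 on control. The groups did not overlap in any of the 3 experiments, and in the first one arrays 1 and 2, which stood apart on the first component, were the highest. Fbln5 rose by 0.97 ± 0.18 log2, or 1.96-fold (SE, n = 3, adjusted p = 0.034). Averaged with its other probe set, which had a mean of 4.21 log2, the difference was 0.49 log2 (adjusted p = 0.0467).

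Among the other fibulins, Efemp1, which encodes fibulin-3 (1427183_PM_at, gene ID 216616, chr11:28853154-28926743), averaged 5.84 ± 0.42 on palmitate and 5.59 ± 0.18 log2 on control in the first VDH15 experiment (SD, n = 4 arrays). It averaged 6.09 ± 0.17 on palmitate and 5.75 ± 0.52 on control with SCC25 tumours, and 5.53 ± 0.26 on palmitate and 5.47 ± 0.35 on control in the second VDH15 experiment (SD, n = 3 arrays). The arrays overlapped in all 3 experiments, and the difference of 0.22 ± 0.23 log2 did not pass (SE, n = 3, adjusted p = 0.605). With only the palmitate and control groups of non-targeting tumours fitted, its SE was 0.086 and it did not pass either (adjusted p = 0.252). Fbln2, which encodes fibulin-2, a binding partner of elastin and basement membranes (1438375_PM_at, gene ID 14115, chr6:91212460-91272540), read between 3.54 and 4.12 log2 over all arrays and had a mean in the lowest 2.0% of genes. Fitted without the filter, its palmitate difference was 0.057 ± 0.089 log2 (adjusted p = 0.785).

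Mfap4 and Mfap5 code for proteins that sit on microfibrils, and they had the largest differences among the 7 genes. Mfap4 (1424010_PM_at, gene ID 76293, chr11:61485431-61488708) read 9.50, 9.04, 8.84 and 9.01 log2 on palmitate in the first VDH15 experiment, against 7.99, 7.55, 7.34 and 7.50 on control. It read 8.98, 9.88 and 8.81 on palmitate with SCC25 tumours, against 7.42, 7.71 and 7.74 on control. In the remaining experiment it read 9.46, 8.42 and 8.25 on palmitate, against 7.52, 8.49 and 7.46 on control. The first 2 experiments showed no overlap, while in the last control array 2 lay above 2 of the 3 palmitate arrays. The rise was 1.33 ± 0.17 log2, or 2.51-fold (SE, n = 3, adjusted p = 0.0174).

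Mfap5 encodes the microfibril protein MAGP2, which binds fibrillins (1418454_PM_at, gene ID 50530, chr6:122513584-122529290). It read 11.25, 11.13, 10.44 and 10.60 log2 on palmitate in the first VDH15 experiment, against 10.24, 9.63, 9.89 and 9.66 on control. The SCC25 arrays read 11.10, 12.68 and 11.63 on palmitate, against 8.75, 8.99 and 9.48 on control. The second VDH15 arrays read 12.12, 10.61 and 10.75 on palmitate, against 9.19, 9.80 and 9.19 on control. No palmitate array overlapped with control, and array 2 with SCC25 and array 1 in the second VDH15 experiment were the highest of their groups. Mfap5 rose by 1.83 ± 0.38 log2, or 3.56-fold (SE, n = 3, adjusted p = 0.0403). Without those 2 arrays, a choice made after seeing the data, the difference was 1.52 log2 and did not pass (adjusted p = 0.06), and 2 of the 7 genes passed, Eln and Mfap4.

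Palmitate arrays lay above all control arrays for 5 of the 7 genes in the first VDH15 experiment (17.2% of all genes), for 6 with SCC25 tumours (15.4%) and for 3 in the second VDH15 experiment (14.9%). Eln, Fbln5 and Mfap5 did so in each of the 3 experiments, 3 of 7 genes, against 5.72% of all genes. The 5 calls rest on all 3 experiments together: without the first VDH15 experiment only Eln passed, among 224 of all 12823 genes. Without the SCC25 or the second VDH15 experiment no gene of the list passed, and 0 of all genes did. Without the 3 arrays that stood apart, Eln, Fbln5 and Mfap4 passed, among 599 genes.

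Within each experiment the 36 arrays were also tested with limma, whose error is the spread of the technical replicate arrays alone. On that basis 5 of 7 genes rose with palmitate in the first VDH15 experiment (20.7% of all genes), 6 with SCC25 tumours (6.95%) and 4 in the second VDH15 experiment (8.75%). Eln, Fbln5, Mfap4 and Mfap5 rose in all 3. The share of all genes that did so was not counted, and can be no larger than the 6.95% with SCC25 tumours. Several calls of the listed genes were lost when 1 array was left out. The Mfap5 call of the first VDH15 experiment was lost without palmitate array 1 or 2 or control array 2 or 4. With SCC25 tumours, Fbn2 and Fbln1 each lost their call without any 1 of 5 of the 6 arrays. In the second VDH15 experiment Fbln5 was lost without palmitate array 1 or control array 1 or 2, Mfap4 without palmitate array 1 or control array 1 or 3, and Mfap5 without palmitate array 1. The Eln difference was 0.77 ± 0.18, 1.54 ± 0.21 and 1.07 ± 0.21 log2 in the order of the experiments (SE over arrays), and it passed with any 1 of the 36 arrays left out. Mfap5 differed between experiments: its palmitate difference was 2.73 ± 0.42 log2 with SCC25 tumours and 1.00 ± 0.37 in the first VDH15 experiment, a gap of 1.73 ± 0.56 log2 (adjusted p = 0.0296), where 18.6% of all genes were called in either direction. That call was lost without any 1 of 4 arrays, namely SCC25 palmitate array 2 (which left 1.29 log2), SCC25 control arrays 1 and 2 and control array 1 of the first VDH15 experiment. No gene of the list was called for the second VDH15 experiment against SCC25 (1.88% of all genes in either direction) or against the first VDH15 experiment (24.3%). The count of 4 in the second VDH15 experiment fell to 1 without palmitate array 1 and to 2 without control array 1.

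**Figure D2:**
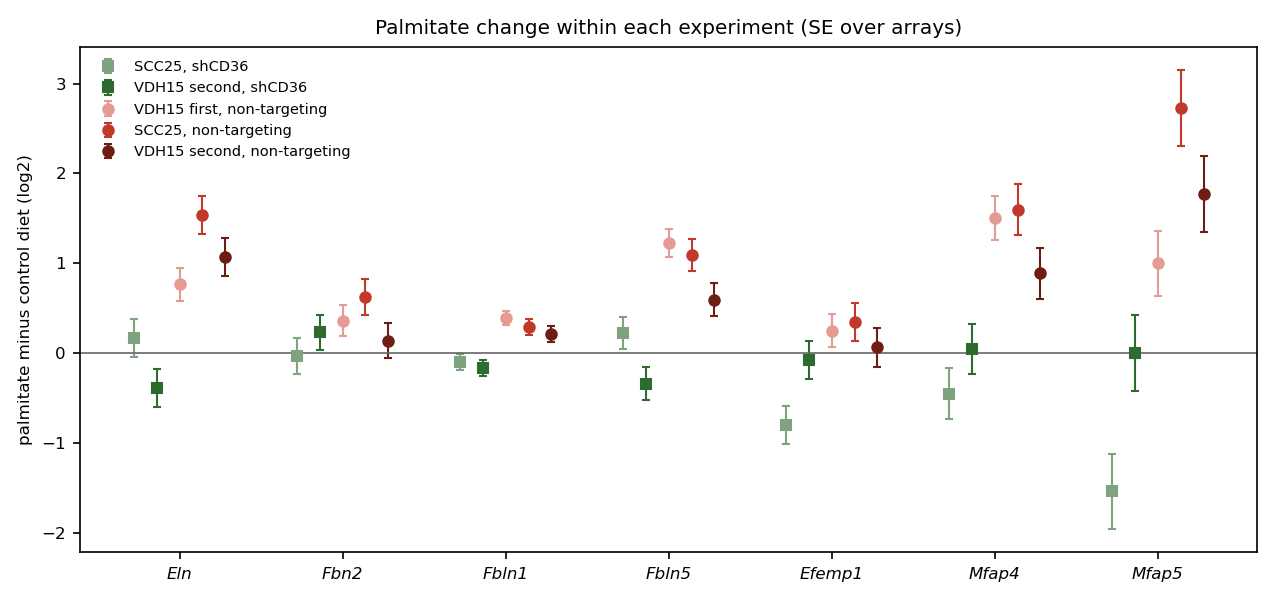
Palmitate minus control difference in log2 intensity for the 7 genes above the filter, within each experiment; squares are shCD36 tumours, circles are non-targeting tumours, and bars are the SE over arrays. All 21 non-targeting differences are above 0, with Mfap5 the highest at 2.73 log2 (SCC25), whereas 5 of the 14 shCD36 differences are.

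The next comparison asked whether palmitate changed the same genes when the tumours carried shCD36. No elastic fibre gene passed (0.0% of all genes called, 2.2% at an unadjusted p under 0.05, none of the 7 among them). The median difference of the 7 genes was -0.13 log2. Eln read 10.27, 10.34 and 10.34 log2 on palmitate in SCC25 shCD36 tumours, against 10.05, 10.25 and 10.16 on control. With VDH15 shCD36 tumours it read 9.86, 10.56 and 9.57 on palmitate, against 10.33, 10.59 and 10.25 on control. Palmitate was higher without overlap with SCC25, while 2 of 3 palmitate arrays with VDH15 lay below every control array, and the mean difference was -0.11 ± 0.20 log2 (SE, n = 2, adjusted p = 1.00).

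Fbln5 read 8.01, 7.89 and 7.60 on palmitate in SCC25 shCD36 tumours, against 7.64, 7.60 and 7.60 log2 on control. Its second VDH15 values were 7.31, 7.57 and 7.07 on palmitate, against 7.53, 7.60 and 7.86 on control. The signs of the 2 experiments were opposite, and the mean difference was -0.06 ± 0.22 log2. Mfap4 read 7.67, 7.67 and 7.90 on palmitate in SCC25 shCD36 tumours, against 7.98, 8.28 and 8.33 on control, and the second VDH15 experiment gave 8.40, 8.12 and 7.93 on palmitate, against 7.84, 8.29 and 8.18 on control. Palmitate was lower without overlap in the first of these pairs, and the second pair overlapped.

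The 2 experiments with shCD36 tumours differ in cell line and hybridisation batch alike. The gap between their palmitate differences was widest for Mfap5, at 1.54 ± 0.60 log2 for the second VDH15 experiment minus SCC25 (SE over arrays, adjusted p = 0.211). With SCC25 shCD36 tumours it read 9.33, 9.29 and 9.09 log2 on palmitate, against 10.80, 11.11 and 10.42 on control. With VDH15 shCD36 tumours it read 10.37, 10.73 and 9.41 on palmitate, against 8.93, 10.78 and 10.79 on control. The SCC25 groups were far apart with palmitate lower, and the VDH15 groups overlapped, with 1 low array in each. The mean difference of -0.77 ± 0.46 log2 did not pass (SE, n = 2, adjusted p = 1.00). Over arrays, Mfap5 (-1.54 ± 0.42) and Efemp1 (-0.80 ± 0.21) were lower on palmitate with SCC25 shCD36 tumours (2 of 7 genes, 0.569% of all genes lower), and no gene was called in the second VDH15 experiment (2.43% in either direction). Both calls were lost when any 1 of 5 of the 6 arrays of these groups was left out, and without the remaining one, palmitate array 2, only 1 was kept. The gap between the 2 experiments was not called for either gene (Efemp1 adjusted p = 0.257; 1.92% of all genes). Without overlap, palmitate was higher for Eln (14.6% of all genes) and lower for Fbln1, Efemp1, Mfap4 and Mfap5 (8.13%) with SCC25 shCD36 tumours. With VDH15 shCD36 tumours 0 of the 7 genes were apart (8.03% of all genes higher, 12.3% lower).

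The difference of the palmitate effect itself, shCD36 minus non-targeting, was negative for all 7 genes on the averages. Within the second VDH15 experiment alone Fbn2 was positive (0.09 ± 0.28 log2, SE over arrays). The median on the averages was -1.03 log2 over the 7 genes, against 0.04 log2 over all genes. On the averages none passed, and 0.0% of all genes did; 15.7% had an unadjusted p under 0.05, as did 5 of the 7. Mfap4 was closest, at -1.53 ± 0.27 log2 (SE, n = 2, adjusted p = 0.0989), followed by Eln at -1.24 ± 0.26 (adjusted p = 0.123) and Mfap5 at -2.60 ± 0.60 (adjusted p = 0.147). Over arrays the difference was called for Eln, Fbln5, Efemp1, Mfap4 and Mfap5 with SCC25 tumours (5 of 7, 4.12% of all genes in that direction). With VDH15 it was called for Eln, Fbln1, Fbln5 and Mfap5 (4 of 7, 7.93%). Eln gave -1.38 ± 0.30 log2 with SCC25 and -1.45 ± 0.30 with VDH15, and both calls held with any 1 array left out. With SCC25, Efemp1 lost its call without non-targeting control array 1, and Fbln5 lost its call without any 1 of 6 of the 12 arrays and with the mean of its probe sets (-0.43 log2, against -0.87). With VDH15, Mfap5 lost its call without any 1 of 16 of the 36 arrays and Fbln1 without any 1 of 8. The VDH15 count fell to 1 without array 1 of the non-targeting palmitate group and to 2 without any of 5 other arrays, namely non-targeting control arrays 1 and 3, shCD36 control arrays 2 and 3 and shCD36 palmitate array 3.

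**Figure D3:**
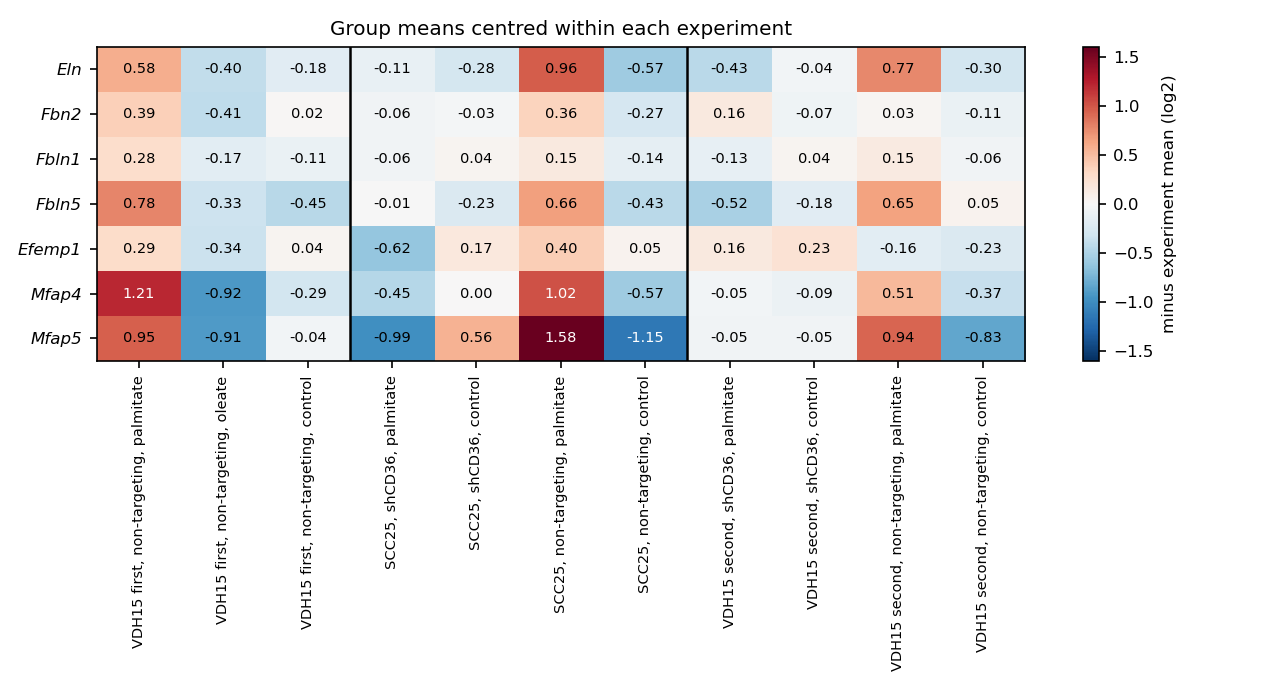
Group means of the 7 genes minus the mean of their experiment (log2 intensity), with rows for genes, columns for the 11 groups and black lines between experiments. Non-targeting palmitate groups are above 0 in 20 of 21 cells, the exception being Efemp1 in the second VDH15 experiment at -0.16, and Mfap5 with SCC25 has the widest span, between -1.15 and 1.58.

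On the palmitate diet, shCD36 tumours were set against non-targeting tumours. On the averages all 7 genes were lower with shCD36, with a median of -0.98 log2 against 0.03 log2 over all genes. Of the 7, 2 were higher with shCD36 in the second VDH15 experiment alone. None of the 7 passed on the averages (0.374% of all genes called). The differences were -1.05 ± 0.19 log2 for Eln (SE, n = 2, adjusted p = 0.0809), -1.06 ± 0.20 for Mfap4 (adjusted p = 0.0843) and -0.98 ± 0.21 for Fbln5 (adjusted p = 0.0976). Mfap5 gave -1.57 ± 0.44 (adjusted p = 0.150) and Fbln1 -0.27 ± 0.08 (adjusted p = 0.156). Without the experiment block, and with arrays fitted under an estimated correlation within groups, Eln, Fbln1, Fbln5, Mfap4 and Mfap5 passed, but so did 1722 and 1627 of all 12823 genes, against 48 with the block.

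With SCC25 tumours all 7 genes were lower with shCD36 on every array than on every non-targeting array, where 12.5% of all genes were. Over arrays 5 of these fell, namely Eln, Fbln5, Efemp1, Mfap4 and Mfap5 (4.16% of all genes lower). With VDH15 tumours Eln and Fbln5 were lower without overlap (19.0% of all genes), and Eln, Fbln1 and Fbln5 fell over arrays (14.9%). Efemp1 (0.32 ± 0.21 log2, SE over arrays) and Fbn2 (0.13 ± 0.20) were higher with shCD36 there, without a call. The Eln difference was -1.08 ± 0.21 log2 with SCC25 and -1.20 ± 0.21 with VDH15. With SCC25 the call of Fbln5 was lost without non-targeting palmitate array 2 or shCD36 palmitate array 3, and with the mean of its probe sets (-0.33 log2, against -0.67). With VDH15 the call of Fbln1 was lost without non-targeting palmitate array 1 (-0.15 log2) and without shCD36 palmitate array 2 or 3.

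On the control diet the order was the other way, without a call. The estimate of shCD36 over non-targeting was above 0 for all 7 genes, between 0.05 ± 0.21 log2 for Fbln5 and 1.03 ± 0.44 for Mfap5, and none passed (0.0% of all genes called, 3.39% at an unadjusted p under 0.05, none of the 7 among them). For Fbln5 the plain mean of both experiments was -0.016. Mfap5 averaged 10.78 ± 0.34 log2 with shCD36 and 9.07 ± 0.37 with the non-targeting shRNA in SCC25 tumours on control (SD, n = 3 arrays). These arrays did not overlap, as for 5 of the 7 genes higher with shCD36 (13.1% of all genes), and Mfap5 was the 1 gene of the 7 called over arrays there (1.70 ± 0.42 log2, adjusted p = 0.0162; 1.75% of all genes higher). The call was lost without control array 1 or 2 of either shRNA. No gene of the list was called on control in the second VDH15 experiment (0.585% of all genes higher), where only Efemp1 was higher without overlap (10.2%), and Mfap5 averaged 10.17 ± 1.07 with shCD36 and 9.39 ± 0.36 with the non-targeting shRNA.

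Oleate was measured in the first VDH15 experiment only, so its test borrows the spread of the other groups. Against control no gene passed (0.0% of all genes; 1.75% at an unadjusted p under 0.05, Fbn2 and Mfap4 among them), and the median of the 7 genes was -0.40 log2. Mfap4 read 6.78, 6.71, 6.92 and 7.46 log2 on oleate, and Mfap5 read 8.69, 8.72, 9.26 and 9.28. Every Mfap5 value on oleate was below the 9.63 to 10.24 seen on control, while for Mfap4 the highest oleate array overlapped with control. Fbn2, Efemp1 and Mfap5 were lower on oleate without overlap (9.06% of all genes). Their differences of oleate over control were -0.71 ± 0.27 log2 for Mfap4 and -0.45 ± 0.60 for Mfap5 in the averages (both adjusted p = 1.00). The plain Mfap5 difference within the experiment was -0.87 log2, and it was -1.36 in one scan batch and -0.38 in the other. Over arrays none of the 7 genes was called (1.51% of all genes higher, 1.27% lower).

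Palmitate over oleate gave positive differences for all 7 genes in the averages, with a median of 0.98 log2, and none passed (0.039% of all genes called, 12.4% at an unadjusted p under 0.05, 6 of the 7 among them). The largest were 2.28 ± 0.60 log2 for Mfap5 (adjusted p = 0.264) and 2.04 ± 0.27 for Mfap4 (adjusted p = 0.111). The plain differences within the first VDH15 experiment had the reverse order, 1.87 log2 for Mfap5 and 2.13 for Mfap4. For Mfap4 the plain difference was 2.51 log2 in one scan batch and 1.74 in the other. Over arrays all 7 were higher on palmitate (18.9% of all genes). Eln read 10.11, 9.91, 9.84 and 10.34 log2 on oleate, all below its 4 palmitate arrays, and differed by 0.98 ± 0.18 log2 over arrays (adjusted p = 7.9e-05). For 6 of the 7 genes every palmitate array lay above every oleate array (15.9% of all genes), and Fbn2 overlapped, since palmitate array 3 read 5.53 log2 and the oleate arrays 5.29 to 5.56.

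The 7 genes differed in how alike their group averages were. Over the 11 averages, centred within each experiment, Pearson's r ran between 0.19 for Fbln5 with Efemp1 and 0.925 for Fbln1 with Mfap4. Mfap4 was most like the mean of the other members (r = 0.988) and Efemp1 least (r = 0.523). These averages share their experiments and rest on 3 or 4 arrays each, so the coefficients are descriptions. Of all genes above the filter, those most like the mean of the members were Vcan (r = 0.993), which encodes the proteoglycan versican, the mesenchymal transcription factor gene Prrx1 (0.991) and the cross-linking enzyme gene Loxl1 (0.989). Meg3, a long non-coding RNA (0.989), Ccn5 (0.988), Vasn (0.985), the collagen gene Col6a2 (0.985) and C1qtnf7 (0.977) followed. The genes most like Eln were Fkbp7, whose product belongs to the FK506-binding proteins (0.973), Sparc, a collagen-binding matrix protein (0.969), and Lox (0.963).

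Partner genes of elastic fibre assembly were read from lists in the palmitate against control comparison of non-targeting tumours, where 3.65% of all genes were called higher. Of 6 genes for lysyl oxidases and the copper pump that supplies them, 3 rose: Lox by 2.15 ± 0.30 log2, Loxl1 by 1.48 ± 0.20 and Loxl3 by 1.28 ± 0.12 (SE, n = 3, adjusted p = 0.0199, 0.0187 and 0.00995). LOX and LOXL1 cross-link elastin. Loxl2 had 0.76 ± 0.26 (adjusted p = 0.121), and the median of the 6 was 1.02 log2. None of the 4 latent TGF-beta binding proteins passed; their differences ran between 0.14 log2 for Ltbp1 and 0.80 for Ltbp2.

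Among 8 other microfibril and elastic fibre proteins above the filter, 1 rose, Emilin2 (0.91 ± 0.16 log2, adjusted p = 0.0293), which encodes a glycoprotein found at elastic fibres. Emilin1 had 0.62 ± 0.18 (adjusted p = 0.0889) and Mfap2, which encodes the microfibril protein MAGP1, had 0.21 ± 0.14 (adjusted p = 0.409). Of 6 elastin-degrading enzymes above the filter 2 rose: Ctsk, which encodes cathepsin K, by 1.64 ± 0.12 log2 (adjusted p = 0.00628) and Ctsl, which encodes cathepsin L, by 0.54 ± 0.09 (adjusted p = 0.0291). Ctss had a large difference with a large error, 1.76 ± 0.45 (adjusted p = 0.0622). Of 6 integrin subunits that bind fibrillin or fibulin-5, 1 rose, Itga5, by 1.07 ± 0.09 (adjusted p = 0.00628). When the palmitate effect was compared between shRNAs, none of these partner genes passed on the averages, and Lox had -3.0 ± 0.48 log2 (adjusted p = 0.0906), Ctsk -1.86 ± 0.20 (adjusted p = 0.0624) and Loxl3 -1.61 ± 0.20 (adjusted p = 0.0659).

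**Figure D4:**
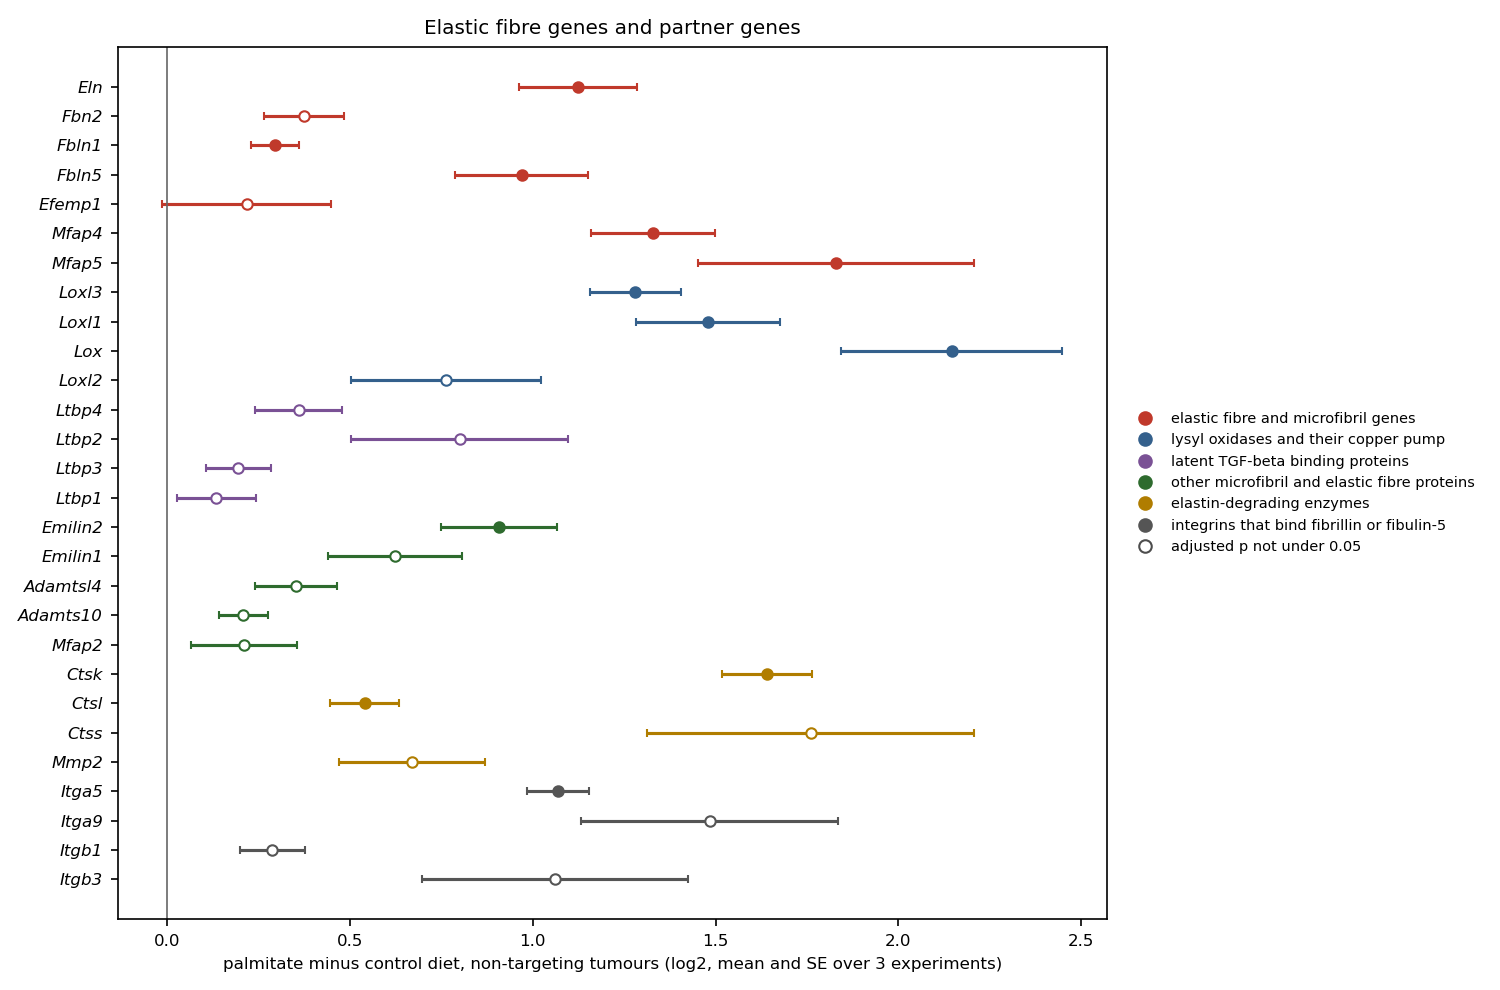
Palmitate minus control difference in non-targeting tumours for the 7 elastic fibre and microfibril genes and 21 partner genes (log2, SE over 3 experiments); filled points passed at an adjusted p under 0.05. Lox has the largest difference at 2.15 log2, and the 4 latent TGF-beta binding proteins are all unfilled.

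Cell type markers moved in the same comparison, where 3.65% of all genes were called higher and 3.27% lower. Of 8 fibroblast markers above the filter 5 rose with palmitate in non-targeting tumours, Lum, Thy1, Pdpn, Fap and Postn, and the median of the 8 was 1.5 log2; Pdgfra and Col1a2 were below the filter. Their median difference was 0.82 log2 in the first VDH15 experiment, 1.66 with SCC25 and 1.12 in the second VDH15 experiment, and -0.48 and -0.09 log2 in the shCD36 tumours of the last 2. The median level of the 8 genes on an array lay between 11.15 and 11.26 log2 on palmitate and between 9.56 and 10.07 on control with SCC25 non-targeting tumours. It lay between 10.70 and 11.41 on palmitate and 10.10 and 10.47 on control in the first VDH15 experiment, and between 10.85 and 11.62 on palmitate and 10.35 and 10.54 on control in the second.

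Of 8 endothelial markers 3 rose (Tek, Vwf and Plvap, median of the 8 1.63 log2), and of 7 macrophage markers 2 rose (Cd14 and Mrc1, median of the 7 0.50). By experiment, in the order used for fibroblasts, the endothelial median was 1.35, 2.51 and 0.93 log2, and 0.52 and -0.43 in shCD36 tumours. The macrophage median was 1.10, 0.18 and 0.74 log2, and 0.15 and 0.18 in shCD36 tumours. None of 7 smooth muscle and pericyte markers passed (median 0.65), nor did any of 4 Schwann cell and glia markers (median -0.06). Of 9 keratinocyte markers 2 fell, Krt13 by 1.23 and Krt4 by 1.95 log2, with a median of -0.45, and of 5 neuron markers Tubb3 fell by 1.16. None of 4 skeletal muscle and 2 adipocyte markers passed. The part of these markers in the rise of the elastic fibre genes was not tested, and in such a mixed fraction more cells of a type and more RNA per cell cannot be told apart.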

How the data were processed

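The deposited values are log2 intensity; per the submitters' processing notes, the authors used RMA and affy. In the values, coefficients of hybridisation batch, scan batch and cell line were below 1e-6 in 100% of 45141 probe sets once diet and shRNA were modelled, an adjustment not given in the sources used here. Probe sets with 1 annotated gene (28898) gave 17097 genes, and the lowest 25% by mean were left out.

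Arrays of each of the 11 groups were averaged and fitted with limma 3.58.1 in R 4.3.3 (condition and experiment as fixed terms, 4 residual and 2.7 prior degrees of freedom), with Benjamini-Hochberg adjustment over 12823 genes and a threshold of 0.05. Since the first VDH15 experiment lacks shCD36, such estimates can differ from plain differences. A limma fit with 11 group means over the 36 arrays gave within-experiment differences. The fit was tested on simulated data. Intervals cover the spread between these samples, which may be technical, and precision is limited by how few arrays there are.

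Members, lists and tests were chosen with earlier results of these data known. Named genes were all members, up to 4 partner genes per list with the smallest unadjusted p plus Lox, Mfap2 and Loxl1, the 8 genes most like the members' mean and the 3 most like Eln. Positions are from RefSeq, GRCm38.p6. Experiments pair the groups, since their groups share a hybridisation batch and a cell line per the labels. Deviations of same-numbered arrays from group means had mean correlations of 0.017, 0.026 and -0.037 (SCC25, first and second VDH15), so array numbers were not taken as pairs. Alternatives were the block, the samples fitted, the filter, the probe set rule, quantile normalization, an intensity trend, duplicateCorrelation, arrays that stood apart and leaving out experiments or arrays.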

Additional observations from a re-analysis of the deposited data

Results flagged for a closer look

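In 24 sets of 4 arrays of 1 group, 2 had a lone array far from the other 3; chance gives about 1 in 20. Fbn2 read 6.25 log2 on array 2 of the control group in the first VDH15 experiment, above the other arrays of that group. Fbln1 read 10.40 log2 on array 4 of the same group, below the others.

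The palmitate effect differed between shCD36 and non-targeting tumours within an experiment, by a test over arrays labelled technical replicates. With SCC25 tumours the difference, shCD36 minus non-targeting, was -1.14 log2 for Efemp1, -1.38 for Eln, -0.87 for Fbln5, -2.05 for Mfap4 and -4.27 for Mfap5. In the second VDH15 experiment it was -1.45 for Eln, -0.38 for Fbln1, -0.94 for Fbln5 and -1.76 for Mfap5. The palmitate effect of Mfap5 in non-targeting tumours was 1.73 log2 larger with SCC25 tumours than in the first VDH15 experiment, a call lost without any 1 of 4 arrays. Fbln5 with SCC25 lost its call without any 1 of 6 arrays and Efemp1 without 1, while in the second VDH15 experiment Fbln1 lost its call without any 1 of 8 arrays, Mfap5 without any 1 of 16 and Fbln5 without 1. Of 42 such differences tested, 10 were called. For the difference between shRNAs, 4.12% of all genes were called lower with SCC25 and 7.93% in the second VDH15 experiment. Between experiments, 18.6% of all genes were called in either direction for SCC25 minus first VDH15. For second minus first VDH15 it was 24.3%. Second VDH15 minus SCC25 gave 1.88% in non-targeting and 1.92% in shCD36 tumours. On the averages no gene of the list passed for the difference between shRNAs (0.0% of all genes).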

How the results depend on the processing

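Palmitate over control in non-targeting tumours called 5 of the 7 genes (887 of all genes), and 6 with no replicate block (experiment left out as a block; 3001 of all genes), 5 with duplicateCorrelation (3052), an intensity trend (929) or the mean of all probe sets (941), and 4 with quantile normalization (1096) or no filter (731). It called 0 when only the groups of the contrast were fitted (34), 3 without the 3 arrays that stood apart (599) and 2 without the 2 arrays high in Mfap5 (389; chosen after seeing the data). Leaving out 1 experiment at a time gave 0 to 1 (0 to 224 of all genes). The 7 differences kept their sign in all 12 alternatives. With no replicate block the count rose to 5 for shCD36 over non-targeting on palmitate, to 4 for the difference of the palmitate effect and to 6 for palmitate over oleate, where 1722, 699 and 869 of all genes were called, and duplicateCorrelation gave 5, 5 and 5, with 1627, 1052 and 581; the cause was not tested. Over arrays, the array number as a replicate block gave 1 for palmitate over control in SCC25 shCD36 tumours (324 of all genes). It gave 2 for the SCC25 minus first VDH15 difference of the palmitate effect (2280 of all genes). The mean of all probe sets gave 1 for the same SCC25 shCD36 comparison (400) and 1 for the second minus first VDH15 difference (3294). Leaving out 1 array gave 0 to 2 for SCC25 shCD36 palmitate over control (0.569% of all genes lower). It gave 0 to 1 for shCD36 over non-targeting on control with SCC25 (1.75% higher). In the second VDH15 experiment, palmitate over control with the non-targeting shRNA gave 1 to 5 (8.75% higher). The difference between shRNAs there also gave 1 to 5 (7.93% lower). The palmitate effect gave 0 to 2 for SCC25 minus first VDH15 (18.6% in either direction) and 0 to 3 for second minus first VDH15 (24.3%). The percentages in these brackets are from the fit of all 36 arrays. Shares of all genes with 1 array left out are not given here, so these ranges have no matching background. Signs turned in uncalled values only. Fbln5 gave -0.016 for shCD36 over non-targeting on control with only the groups of the contrast and 0.087 for oleate over control without the 3 arrays that stood apart, and Fbln1 gave 0.077 for second VDH15 minus SCC25 in shCD36 tumours with the mean of all probe sets. Leaving out 1 experiment, palmitate over control in shCD36 tumours ran between -0.39 and 0.16 for Eln, -0.032 and 0.23 for Fbn2, -0.34 and 0.22 for Fbln5, -0.45 and 0.045 for Mfap4, and -1.54 and 0.0023 for Mfap5. Likewise shCD36 over non-targeting ran between -0.35 and 0.075 for Fbn2 and -0.997 and 0.27 for Efemp1 on palmitate and between -0.077 and 0.24 for Fbln5 on control, and oleate over control between -0.038 and 0.087 for Fbln5. Leaving out 1 array, Fbn2 ran between -0.11 and 0.025 for palmitate over control in SCC25 shCD36 tumours. In the second VDH15 experiment Fbn2 ran between -0.051 and 0.25 for shCD36 over non-targeting on palmitate, -0.11 and 0.15 on control and -0.089 and 0.24 for the difference of the palmitate effect. Efemp1 ran between -0.18 and 0.29 for shCD36 over non-targeting on control with SCC25, between -0.12 and 0.22 for palmitate over control in second VDH15 non-targeting tumours and between -0.30 and 0.043 for the difference there. In second VDH15 shCD36 tumours palmitate over control ran between -0.088 and 0.16 for Mfap4 and -0.62 and 0.38 for Mfap5. The palmitate effect of SCC25 minus first VDH15 ran between -0.29 and 0.039 for Fbln5, -0.20 and 0.26 for Efemp1 and -0.23 and 0.30 for Mfap4, and that of second VDH15 minus SCC25 between -0.21 and 0.033 for Fbln1 and -0.47 and 0.016 for Efemp1. Oleate comparisons could not be fitted with only their groups or without the first VDH15 experiment.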

Other observations

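Genes with more than 1 probe set gave a second reading of the palmitate difference in non-targeting tumours. For Eln the other probe set differed by 0.58 log2 in the first VDH15 experiment, 1.47 with SCC25 and 0.57 in the second VDH15 experiment, and in the same order for Mfap5 by 1.29, 2.40 and 2.15. For Fbln1 the second probe set gave 0.32, 0.38 and 0.39 and the third 0.13, 0.03 and 0.09. The dim second probe set of Fbln5 gave 0.12, 0.01 and -0.11.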
